A study of Mus musculus with 18 samples.

Results

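The insulin-like growth factor binding proteins are secreted proteins that bind IGF-I and IGF-II, and 6 of their genes, Igfbp2 to Igfbp7, were measured in RNA from mouse choroid, retina and brain. They were picked by gene symbol from the gene tables of the 3 tissues. All 6 stood in each table, among 11718 genes listed for choroid, 12369 for retina and 12919 for brain, and 14068 genes were listed in at least 1 table.

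The study compared endothelial translatomes across vascular beds of the central nervous system by translating ribosome affinity purification (TRAP). Every animal carried Tie2-cre and NuTRAP (genotype Tie2-cre+; NuTRAP+; the tables' column names also say WT), so that ribosomes carry a GFP tag in cells where Cre has been active, and an anti-GFP antibody recovers them with their RNA. The groups were the choroid positive fraction (the pull-down) and choroid input, the retina positive fraction and retina input, and the brain positive fraction and brain input, with 3 libraries each, numbered 421, 953 and 960. A choroid or retina sample pooled 2 eyes, the choroid one collected together with the retinal pigment epithelium (RPE), and a brain sample used 0.5 of a brain. The Tie2 promoter is also active in the blood lineage, so the tag is not limited to endothelium, and all 6 groups share the same genotype. Libraries of a group are biological replicates per the design text, age and sex were not given, and no Cre-negative or mock pull-down was analysed here.

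In circulation and in tissue the binding proteins hold IGFs away from the type 1 IGF receptor or prolong their lifetime, and proteases that cut them release the ligand. Igfbp2 to Igfbp6 encode high-affinity binders. Igfbp3 and Igfbp5 can join the acid-labile subunit in a ternary complex with IGF, Igfbp6 prefers IGF-II, and Igfbp4 and Igfbp5 are substrates of pappalysins. Igfbp7 encodes a distant relative of low IGF affinity that vascular endothelium secretes and that associates with type IV collagen of the basement membrane.

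Summed counts over listed genes were 2649095 to 4587921 in choroid positive libraries and 8807306 to 14484068 in choroid inputs. They were 6260958 to 11071373 in retina positive libraries and 15243098 to 21521130 in retina inputs, and 18618427 to 28277853 in brain positive libraries and 9596740 to 32064355 in brain inputs. A table lists a gene where all libraries of at least 1 fraction reach 50 raw counts. All 8 endothelial markers (among them Pecam1, Cdh5 and Cldn5) were higher in the positive fraction of each tissue, with median log2 fold changes of 3.75 in choroid, 6.66 in retina and 5.48 in brain. Myeloid markers were higher too, in 6 of 7 in choroid, 4 of 4 listed in retina and 7 of 7 in brain, and in choroid so were 4 of 4 mast cell markers. Fibroblast markers were lower in 6 of 7 in choroid and 5 of 5 listed in brain, while 0 of the 2 listed in retina were called. Brain input 960 was the shallowest brain library, at 9596740 counts, and stood apart: its summed choroid plexus markers were 1342 CPM, against 615 and 605 CPM in inputs 421 and 953. The 5 rod markers, which define retina, summed to 21232 to 35157 CPM in retina positive libraries and 36055 to 37715 CPM in retina inputs, and none was listed in brain. All 5 were listed in choroid too, at 101, 494 and 1599 CPM in positive libraries and 286, 1618 and 3760 CPM in inputs. Of the 5 RPE markers, 4 were listed in choroid (1669 to 3115 CPM in positive libraries and 7350.4 to 11387 CPM in inputs) and 4 in retina (172 to 183 CPM in positive libraries and 249.98 to 267 CPM in inputs). Choroid input 421 held 4883 CPM of the 2 listed oligodendrocyte markers, against 170.1 and 252 CPM in inputs 953 and 960. Choroid positive 421, the positive library with the most Igfbp3 and Igfbp7, stood apart likewise, at 1374 CPM against 46.9 and 89.4 CPM.

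The genes lie on 4 chromosomes of the mm10 build used by the tables. Igfbp2 (chromosome 1, 72824480 to 72852471, plus strand) and Igfbp5 (chromosome 1, 72858065 to 72874865, minus strand) are next to each other and point in opposite directions. Igfbp3 (7206091 to 7213923, minus strand) and Igfbp4 (99041260 to 99052643, plus strand) are on chromosome 11, Igfbp6 is on chromosome 15 (102144186 to 102149512, plus strand) and Igfbp7 on chromosome 5 (77349240 to 77408045, minus strand). Igfbp7 overlaps Polr2b and the antisense gene Gm34648 on the other strand. The library kit is directional, but whether the counting used strand is not given in the sources used here, so reads in that overlap may be shared.

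The 250 bases before the transcription start (RefSeq, GRCm38.p6) are shown for Igfbp7 and Igfbp3, the members higher in the positive fraction of all 3 tissues, and for Igfbp2, the member lower in all 3. Capitals mark matches, on either strand, to the GC box core GGGCGG, which reads CCGCCC on the other strand, to the TATA-like run TATATA, or to the ETS core CCGGAA, which reads TTCCGG on the other strand. TATATA is its own reverse complement, and no matches overlap. The Igfbp7 window is chr5:77408046-77408295 (minus strand), the Igfbp3 window chr11:7213924-7214173 (minus strand) and the Igfbp2 window chr1:72824230-72824479 (plus strand), each printed 5′ to 3′ along the gene. RefSeq gives Igfbp2 2 starts, and the one that matches the gene tables' annotation was used.
Igfbp7: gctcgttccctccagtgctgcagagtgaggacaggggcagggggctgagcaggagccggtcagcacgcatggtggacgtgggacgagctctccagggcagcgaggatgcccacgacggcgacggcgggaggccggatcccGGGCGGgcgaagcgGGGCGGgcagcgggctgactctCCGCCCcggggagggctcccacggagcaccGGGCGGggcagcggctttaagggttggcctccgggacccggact
Igfbp3: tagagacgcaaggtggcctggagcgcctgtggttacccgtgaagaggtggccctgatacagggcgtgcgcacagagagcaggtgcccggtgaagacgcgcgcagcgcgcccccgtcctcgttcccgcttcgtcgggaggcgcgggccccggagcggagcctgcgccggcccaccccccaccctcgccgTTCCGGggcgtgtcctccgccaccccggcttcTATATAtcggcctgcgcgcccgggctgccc
Igfbp2: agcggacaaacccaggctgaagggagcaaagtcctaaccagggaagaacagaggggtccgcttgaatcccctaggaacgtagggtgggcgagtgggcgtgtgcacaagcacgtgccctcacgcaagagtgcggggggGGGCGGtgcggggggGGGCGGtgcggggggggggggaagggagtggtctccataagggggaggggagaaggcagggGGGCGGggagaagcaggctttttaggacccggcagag
The Igfbp7 window holds 4 GC boxes, and the Igfbp2 window 3. The Igfbp3 window has none but holds TATATA at position -30 and TTCCGG at position -62 relative to the start. Of 32851 RefSeq promoters searched over the same length, 32.7% hold GGGCGG, 5.25% TATATA and 12.0% CCGGAA. GC content is 74.0% for Igfbp7, 73.2% for Igfbp3 and 67.2% for Igfbp2, beside a median of 52.4% over all promoters. The number of CpG dinucleotides is 26, 32 and 14 in the same order, beside a median of 6. TATAAA, which 12.4% of promoters hold, is found in the windows of Igfbp4 (1 match) and Igfbp6 (1 match). The Igfbp5 window has no match to any of these motifs.

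Levels below are library-scaled read counts (CPM) normalised within the tissue, in the order 421, 953 and 960. Fold changes are log2 of positive over input with their standard error, tested with edgeR's quasi-likelihood test over all listed genes of the tissue, and a gene was called at a Benjamini-Hochberg adjusted p under 0.05. This test did not pair the positive and input libraries of a number. Over the 6 genes and 3 tissues, 8 of the 18 fold changes were called higher, 5 lower and 5 not. With the pairing as a replicate block, Igfbp6 was also called lower in choroid and brain. The block moved the genes called from 4922 to 6635 in choroid, from 3922 to 3886 in retina and from 5103 to 4167 in brain. Among all genes, 42.0% were called in choroid (21.1% higher, 20.9% lower), 31.7% in retina (18% higher, 13.7% lower) and 39.5% in brain (21.2% higher, 18.3% lower). Of the 6 members, 2 were higher and 2 lower in choroid, 3 higher and 2 lower in retina, and 3 higher and 1 lower in brain. Overlap between groups of libraries is described below for single genes, and the share of all genes without overlap was not counted. In bulk RNA, fewer cells of a type and less RNA per cell cannot be told apart. Scaling choroid by total counts alone moved the median log2 fold change of all its genes from -0.03 to -0.26 and the share of higher among called genes from 50.2% to 34.5%, and no member changed direction under it.

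**Figure D1:**
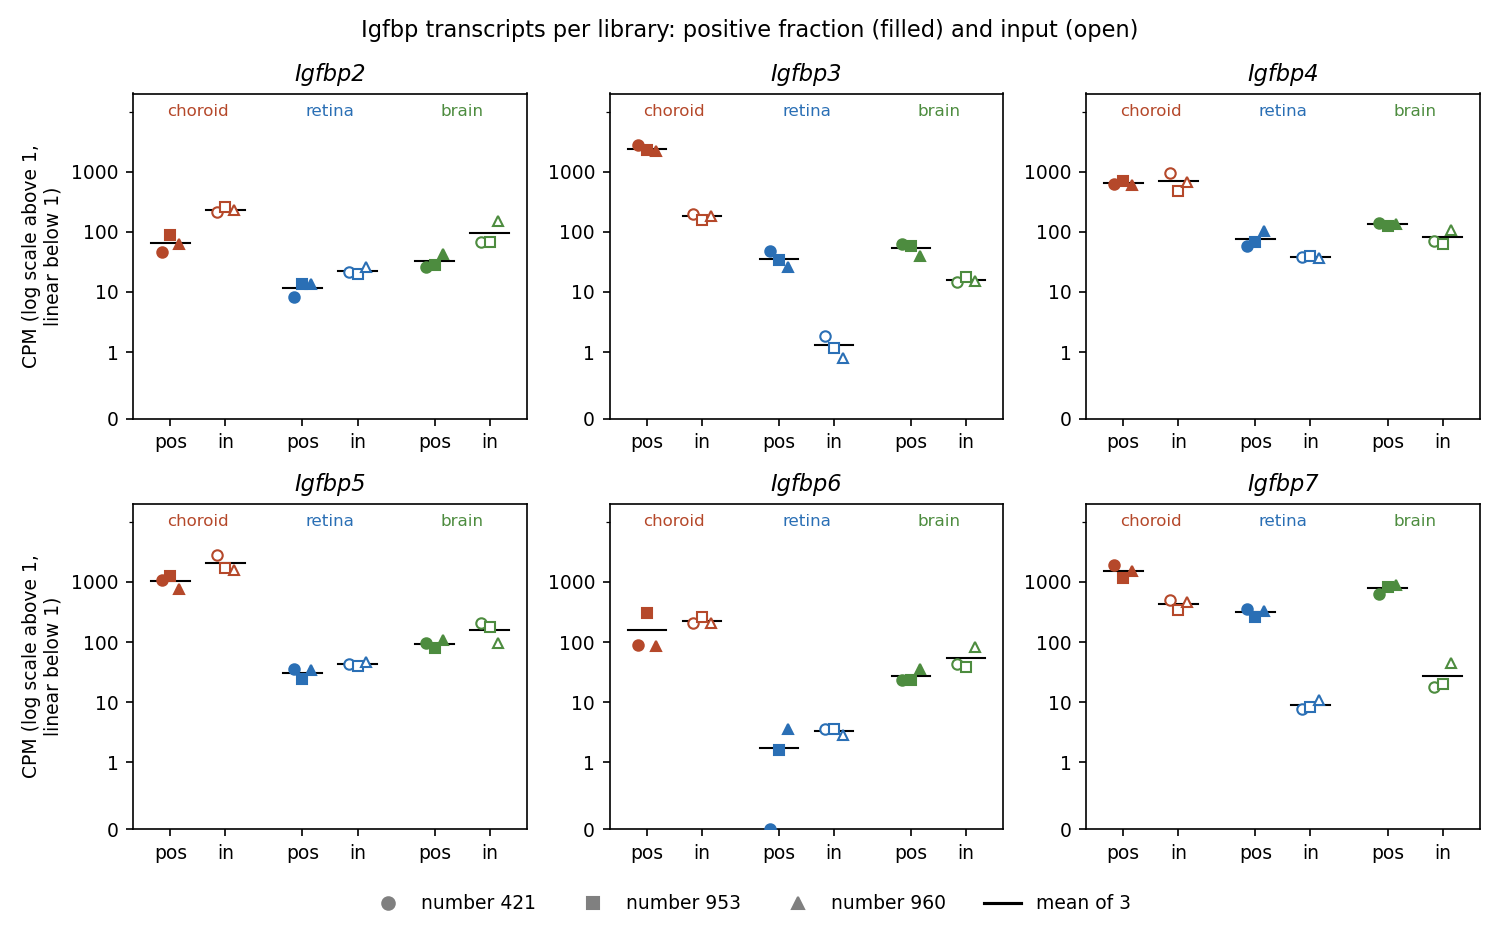
Each panel plots 1 gene: CPM scaled within tissue (y, log scale above 1 and linear below) for the positive fraction (filled) and input (open) of choroid, retina and brain. Points are single libraries, shapes give the replicate number and bars the mean of 3; filled Igfbp3 and Igfbp7 points lie above the open ones in every tissue, and filled Igfbp2 points below.

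Igfbp7 was higher in the positive fraction in all 3 tissues. In choroid it had 1885, 1145 and 1532 CPM in the positive libraries, against 494, 343 and 467 CPM in the inputs. In retina the positive libraries had 357, 257 and 331 CPM, against 7.68, 8.27 and 11.1 CPM in the inputs. In brain they had 629, 826 and 887 CPM, against 18.2, 20.3 and 44.6 CPM in the inputs. The fractions did not overlap in any tissue, and even the highest retina and brain inputs were far below the lowest positive library. The log2 fold change was 1.81 ± 0.25 in choroid (3.50-fold, adjusted p = 0.000854), 5.12 ± 0.20 in retina (34.9-fold, adjusted p = 6.29e-07) and 4.83 ± 0.42 in brain (28.4-fold, adjusted p = 0.000212). By fold change Igfbp7 ranked 112 of 12369 genes in retina and 116 of 12919 in brain, but 621 of 11718 in choroid. The median of the endothelial markers was higher than the value of Igfbp7 in each tissue (3.75, 6.66 and 5.48). These calls held in all 17 alternatives per tissue, with adjusted p of at most 0.0134 in choroid, 0.00096 in retina and 0.0109 in brain. Brain input 960, the highest for Igfbp7, is the library with the high choroid plexus markers, and without it the brain log2 fold change was 5.34.

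Igfbp3, whose product is the main IGF carrier of serum, was also higher in the positive fraction everywhere. In choroid it had 2833, 2281 and 2177 CPM in the positive libraries, against 199, 160.2 and 184 CPM in the inputs. Retina positive libraries had 47.4, 33.9 and 25.6 CPM, against 1.84, 1.17 and 0.91 CPM in the inputs. In brain the values were 62.2, 59.1 and 39.8 CPM in the positive libraries, against 14.7, 17.4 and 15.4 CPM in the inputs. The fractions did not overlap in any tissue. The retina inputs rest on 27.5, 25 and 17 raw counts, below the listing minimum, so Igfbp3 is listed in retina through its positive libraries alone. The log2 fold change was 3.75 ± 0.22 in choroid (13.4-fold, adjusted p = 4.66e-05), 4.78 ± 0.32 in retina (27.5-fold, adjusted p = 1.14e-05) and 1.76 ± 0.21 in brain (3.39-fold, adjusted p = 0.000864). In choroid Igfbp3 ranked 35 of 11718 genes, beside an endothelial marker median of 3.75. In retina it ranked 141 of 12369, and in brain 1293 of 12919. All 3 calls held in all 17 alternatives, with adjusted p of at most 0.00645 in choroid, 0.0047 in retina and 0.0294 in brain. In retina the positive library with the most Igfbp3, 421, also had the most mural marker RNA: 423 CPM over the 3 listed markers, against 44.2 and 24.8 CPM in positive libraries 953 and 960 and 25.3 to 27.4 CPM in the inputs. Without that library the Igfbp3 log2 fold change was 4.53 and was still called, at an adjusted p within the range above.

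**Figure D2:**
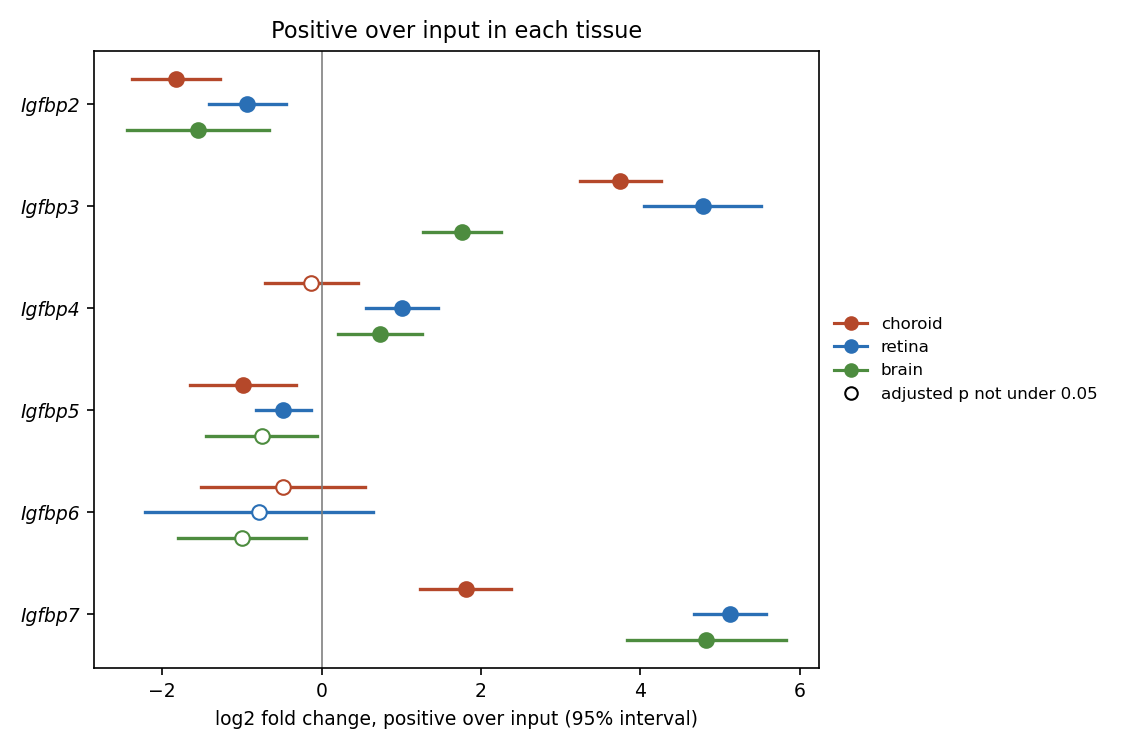
Log2 fold change of positive over input (x) for each gene (rows) and tissue (colours), with unadjusted 95% intervals; filled points have an adjusted p under 0.05. Igfbp3 and Igfbp7 lie right of 0 in all 3 tissues, from 1.76 to 5.12, and Igfbp2 lies left of 0, from -1.83 to -0.94.

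Igfbp4, an inhibitory binding protein cut by the pappalysin PAPP-A, was higher in the positive fraction of retina and brain and not called in choroid. Retina positive libraries had 58.0, 67.4 and 104 CPM, against 37.7, 39.7 and 37.1 CPM in the inputs. Brain positive libraries had 141, 125 and 134 CPM, against 69.7, 64.0 and 108 CPM in the inputs. In choroid the values were 623, 695 and 605 CPM in the positive libraries, against 949, 481 and 672 CPM in the inputs. The fractions overlapped in choroid alone, where the 3 inputs spread more widely than the 3 positive libraries. The log2 fold change was 1.01 ± 0.20 in retina (adjusted p = 0.0065), 0.73 ± 0.22 in brain (adjusted p = 0.0378) and -0.13 ± 0.26 in choroid (adjusted p = 0.711, interval -0.71 to 0.45). The brain call was lost in 9 of 17 alternatives, among them every single library left out except input 960 (log2 fold change 0.59 to 0.74 in those), with adjusted p from 4.77e-05 to 0.314. The retina call was lost without number 953 (adjusted p = 0.0938, range over 17 alternatives 3.22e-05 to 0.0938). The choroid value turned to 0.14 without input 421 (adjusted p = 0.662, range 0.287 to 0.839), the input with the high oligodendrocyte markers, and was not called in any of 17 alternatives.

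Igfbp5, the most conserved family member and one that binds extracellular matrix, was lower in the positive fraction of choroid and retina. Choroid positive libraries had 1084, 1235 and 772 CPM, against 2852, 1712 and 1565 CPM in the inputs. In retina it had 35.1, 24.6 and 34.0 CPM in the positive libraries, against 43.2, 40.6 and 47.2 CPM in the inputs. Brain positive libraries had 97.9, 78.4 and 107 CPM, against 206, 176 and 95.1 CPM in the inputs. The fractions overlapped in brain only, through input 960. The log2 fold change was -0.99 ± 0.29 in choroid (adjusted p = 0.0261), -0.48 ± 0.15 in retina (adjusted p = 0.0418) and -0.75 ± 0.30 in brain (adjusted p = 0.0827). Without input 960 the brain value was -1.01 (adjusted p = 0.000565, range over 17 alternatives 0.000138 to 0.400), and Igfbp5 was then called. The choroid call was lost without input 421 (log2 fold change -0.68, adjusted p = 0.0731), without positive library 960 (-0.82, adjusted p = 0.0838) and without any 1 replicate number (range over 17 alternatives 0.00116 to 0.0881). The retina call was lost in 9 of 17 alternatives, which include leaving out any 1 input, positive library 953 (-0.32) or any 1 replicate number, with adjusted p from 0.0179 to 0.217.

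Fibroblast markers moved with Igfbp5 in choroid. The 7 fibroblast markers summed to 595 to 910.0 CPM in choroid positive libraries and 1815 to 2447 CPM in choroid inputs, and 6 of 7 were lower. Of 9 listed mural markers 6 were lower and 1 higher, but their sums overlapped, at 471, 384 and 409 CPM in choroid positive libraries and 642, 354 and 358 CPM in choroid inputs. In choroid input 421, where Igfbp5 and Igfbp4 were highest, fibroblast, mural and astrocyte sums were also the highest of the 3 inputs, at 2447, 642 and 1982 CPM. In brain the 5 listed fibroblast markers summed to 29.1 to 47.1 CPM in positive libraries and 114 to 144 CPM in inputs. Their part in the levels of Igfbp5 was not tested.

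Igfbp2, which carries an integrin-binding motif, was lower in the positive fraction of all 3 tissues. In choroid it had 47.0, 89.2 and 63.2 CPM in the positive libraries, against 213, 259.9 and 233 CPM in the inputs. Retina had 8.30, 13.3 and 13.5 CPM in the positive libraries, against 21.8, 19.6 and 26.1 CPM in the inputs. Brain had 26.4, 28.5 and 42.7 CPM in the positive libraries, against 66.6, 68.1 and 151 CPM in the inputs. Each tissue's inputs lay wholly above its positive libraries, and brain input 960 stood above the other brain inputs. The log2 fold change was -1.83 ± 0.24 in choroid (adjusted p = 0.000678), -0.94 ± 0.21 in retina (adjusted p = 0.0116) and -1.55 ± 0.38 in brain (adjusted p = 0.0169). The choroid call held in all 17 alternatives (adjusted p of at most 0.012). The brain call was lost in 4 of 17, without positive library 421 (adjusted p = 0.0732), positive library 953 (0.0853) or either whole number, with adjusted p from 9.82e-06 to 0.101. The retina call was lost without input 960 (adjusted p = 0.0608) and without number 953 (0.0925), the highest of its 17 alternatives, the lowest being 0.00047.

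Several lists of markers of other cell types were lower in the positive fraction, as Igfbp2 was, some of them in more than 1 tissue. RPE markers were lower in choroid and retina (3 of 4 listed). In brain Otx2 was the only gene of that list present and was lower, at no more than 5.74 CPM. Rpe65, Lrat and Rgr were not listed in brain, so Otx2 is no measure of RPE there. Genes of the choroid plexus list were lower in choroid (3 of 3), retina (3 of 5) and brain. In choroid these were Ttr, Folr1 and Clic6, which summed to 5050, 8160 and 7418 CPM in inputs 421, 953 and 960. The RPE markers had the same order there (7350, 11387 and 10036 CPM), so the 2 lists cannot be told apart in choroid. Fibroblast markers were lower in choroid (6 of 7) and brain (5 of 5). In brain so were 5 of 6 neuron and 4 of 5 oligodendrocyte markers. Astrocyte markers were lower in choroid (3 of 5), retina (2 of 5, with 1 higher) and brain (3 of 5). In choroid, 4 of 4 listed RPE markers were lower, with sums of 1669 to 3115 CPM in positive libraries and 7350.4 to 11387 CPM in inputs. In brain, 4 of 4 listed choroid plexus markers were lower, with sums of 126 to 315 CPM in positive libraries and 605 to 1342 CPM in inputs, and input 960 was the highest for both these markers and Igfbp2. In retina, 3 of 4 Müller glia markers were lower and 0 higher, with sums of 2427 to 3275 CPM in positive libraries and 3674 to 3922 CPM in inputs. The same 4 Müller glia markers were not uniformly lower in choroid, where 2 were lower and 1 higher and the sums were 27794 to 41617 CPM in positive libraries and 11722 to 13975 CPM in inputs, mostly Apoe. In retina, 2 of 3 listed mural markers were higher, with sums of 423, 44.2 and 24.8 CPM in positive libraries 421, 953 and 960. Their part in the result was not tested.

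Igfbp6, the binder with a preference for IGF-II, was not called in any tissue by the unpaired test. Choroid positive libraries had 88.3, 303 and 87.7 CPM, against 209, 258 and 205 CPM in the inputs. Brain positive libraries had 23.4, 23.6 and 35.4 CPM, against 43.6, 38.0 and 83.9 CPM in the inputs. In retina it had 0, 1.59 and 3.59 CPM in the positive libraries, against 3.61, 3.55 and 2.84 CPM in the inputs. Only brain showed no overlap between fractions, and choroid overlapped through positive library 953 alone. The retina values rest on 0, 10 and 40 raw counts in the positive libraries, against 55, 76 and 53 in the inputs, so that Igfbp6 is listed there through its inputs. A count of 0 in positive library 421 allows up to 0.448 CPM of listed counts (3 counts, counting error only). The log2 fold change was -0.49 ± 0.45 in choroid (adjusted p = 0.408), -1.0 ± 0.34 in brain (adjusted p = 0.0549) and -0.79 ± 0.63 in retina (adjusted p = 0.363).

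Several alternatives did call Igfbp6. With the replicate number as a block, which pairs each positive library with the input of its own lysate, it was lower in choroid (-0.73, adjusted p = 0.028, range over 17 alternatives 0.00298 to 0.757) and in brain (-0.94, adjusted p = 0.0183, range 0.000252 to 0.184). Without choroid positive library 953 it was lower at -1.35 (adjusted p = 0.00298), and without retina positive library 960 at -2.08 (adjusted p = 0.0389, range over 16 alternatives 0.0389 to 0.729). Brain gave 6 such alternatives of 17, among them total-count scaling (-1.03) and leaving out input 953 (-1.21, adjusted p = 0.0382) or input 960 (-0.57, adjusted p = 0.0311). Choroid positive library 953 also had the highest summed mast cell markers (1031 CPM, against 319 and 490.0 CPM in positive libraries 421 and 960) and fibroblast markers (910.0 CPM, against 725 and 595 CPM). Their part in its Igfbp6 level was not tested.

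Divided by exon length, the levels of the 6 genes can be set beside each other. In the choroid positive fraction Igfbp7 had 1072 to 1774 CPM per kilobase and Igfbp3 799 to 1030.0, without overlap. Igfbp5 (148 to 233), Igfbp4 (157 to 178) and Igfbp6 (90.3 to 309) overlapped each other, and Igfbp2 was lowest at 28.9 to 54.7 CPM per kilobase. The choroid inputs were ordered otherwise. Igfbp5 (300.0 to 550.4) and Igfbp7 (326 to 473) overlapped at the top, Igfbp4 (125 to 249) overlapped both Igfbp6 (213 to 267) and Igfbp2 (134 to 162), and Igfbp3 was lowest at 58.8 to 73.7 CPM per kilobase. Igfbp3 thus had the second highest level in the choroid positive fraction and the lowest in the choroid input.

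In the retina positive fraction Igfbp7 had 218 to 298 CPM per kilobase, Igfbp4 13.3 to 23.8 and Igfbp3 8.29 to 15.3, and the ranges of Igfbp4 and Igfbp3 overlapped. In the brain positive fraction Igfbp7 had 528 to 753, Igfbp4 28.4 to 32.3 and Igfbp6 21.3 to 32.7, again with overlap below Igfbp7. The retina inputs were led by Igfbp2 (11.1 to 14.9) and ended with Igfbp3 (0.305 to 0.616), and the brain inputs were led by the overlapping Igfbp2 (41.9 to 93.8) and Igfbp6 (39.5 to 86.5) and ended with Igfbp3 (5.44 to 6.44). Igfbp3 was thus the lowest of the 6 genes per kilobase in the input of every tissue.

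As a share of the summed family level per kilobase, Igfbp7 made up 86.0% ± 2.08 of the retina positive fraction (SD, n = 3) and 85.8% ± 2.13 of the brain positive fraction. In the choroid positive fraction it made up 49.4% ± 8.02, and Igfbp3 30.6% ± 0.832. Igfbp7 took 28.9% ± 3.74 of the choroid input, 19.0% ± 2.42 of the retina input and 12.7% ± 2.56 of the brain input. Igfbp2 led the retina input with 31.2% ± 2.25 and the brain input with 28.6% ± 4.89, where Igfbp6 followed with 27.8% ± 3.37. Positive fractions of retina and brain were therefore mostly Igfbp7, whereas no gene held more than 34.2% of the family in any retina or brain input library. The summed family level was 2671 to 3289 CPM per kilobase in choroid positive libraries and 1266 to 1698 in choroid inputs. It was 257 to 337 in retina positive libraries and 38.4 to 44.5 in retina inputs, and 633 to 871 in brain positive libraries and 159 to 275 in brain inputs.

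**Figure D3:**
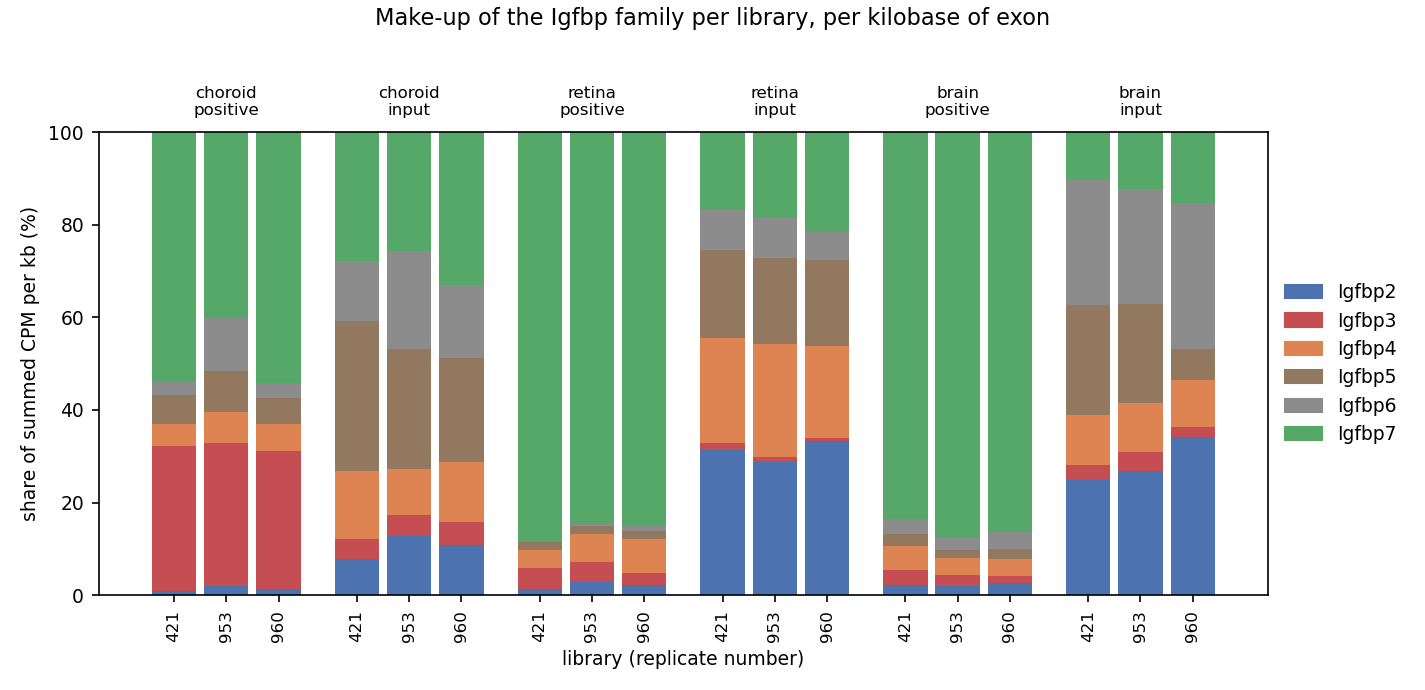
Share of each gene in the summed CPM per kilobase of the 6 genes (y, percent), 1 bar per library, grouped by tissue with the positive fraction left of its input. Igfbp7 fills 84.6% to 88.4% of each retina positive bar and 83.4% to 87.6% of each brain positive bar, and Igfbp3 is a large segment only in the choroid positive bars (29.7% to 31.3%).

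Whether enrichment differed between tissues was tested as the difference of the log2 fold changes in 1 fit of all 18 libraries, over 10505 genes listed in all 3 tables. Of all genes, 28.8% differed between choroid and retina (10.9% larger and 18% smaller in choroid), 24.6% between choroid and brain (12.2% larger and 12.3% smaller in choroid) and 13.3% between retina and brain (8.33% larger and 4.97% smaller in retina). Members called were 3 (all lower in choroid), 2 (1 higher and 1 lower in choroid) and 1 (higher in retina). Igfbp7 enrichment was smaller in choroid, by -3.29 ± 0.43 relative to retina (adjusted p = 4.41e-05) and -2.86 ± 0.42 relative to brain (adjusted p = 0.000125). Between retina and brain the difference was 0.43 ± 0.42 (adjusted p = 0.526), with an interval of -0.45 to 1.32, and it turned to -0.30 without brain input 960 (range over 27 alternatives 0.311 to 0.930). In the same fit 7 of 8 endothelial markers were smaller in choroid than in retina (median -2.70) and 5 of 8 smaller in choroid than in brain (median -1.84), and what part this has in the Igfbp7 values was not tested. The lower choroid enrichment of Igfbp7 stands beside a higher choroid input, since its inputs were 5.73 ± 0.41 log2 units above retina inputs and 3.99 ± 0.37 above brain inputs.

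Igfbp3 ordered the tissues differently. Its enrichment was larger in choroid than in brain by 2.16 ± 0.34 (adjusted p = 0.000194) and larger in retina than in brain by 3.16 ± 0.37 (adjusted p = 4.1e-05), and both held in all 27 alternatives. Igfbp3 is listed in retina through its positive libraries alone, so its retina enrichment and the differences built on it come from a gene that met the listing minimum in its high group only. Relative to retina the choroid value was lower by -1.01 ± 0.36 (adjusted p = 0.0456), but 16 of 27 alternatives did not call it (adjusted p from 0.0122 to 0.341). Each of those left out a library or a replicate number. Of the leave-outs, those of choroid positive 421, retina input 421, retina positive 960 and either fraction of brain 960 kept the call, as did the other processing alternatives. Igfbp4 enrichment was smaller in choroid than in retina by -1.11 ± 0.35 (adjusted p = 0.0266), lost in 10 of 27 alternatives (0.00626 to 0.156), which left out choroid input 421, any choroid positive library, retina input 421 or 960, retina positive 960 or any replicate number. Against brain its difference was -0.69 ± 0.35 (adjusted p = 0.16), and it was called with total-count scaling at -1.05 (adjusted p = 0.0333, range over 27 alternatives 0.0152 to 0.685), without brain input 960 at -1.14 (adjusted p = 0.0152) and without number 960 at -1.14 (adjusted p = 0.0431). Igfbp2 enrichment differed between choroid and retina by -0.86 ± 0.44 (adjusted p = 0.157), and with the replicate block by -0.88 (adjusted p = 0.0301, range over 27 alternatives 0.0301 to 0.425). For Igfbp5 and Igfbp6 none of the 3 differences was called. The Igfbp5 intervals were -1.32 to 0.36 for choroid minus retina, -0.90 to 0.77 for choroid minus brain and -0.43 to 1.26 for retina minus brain. Those of Igfbp6 were wider, -1.42 to 2.07, -0.79 to 2.13 and -1.43 to 2.13 in the same order. Total-count scaling moved the share of higher among called genes from 37.7% to 17.8% for choroid minus retina, from 49.8% to 19.9% for choroid minus brain and from 62.6% to 52.4% for retina minus brain. Under it the medians of all genes were -0.33, -0.26 and 0.12, beside -0.07, 0.08 and 0.20 with the scaling used here.

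**Figure D4:**
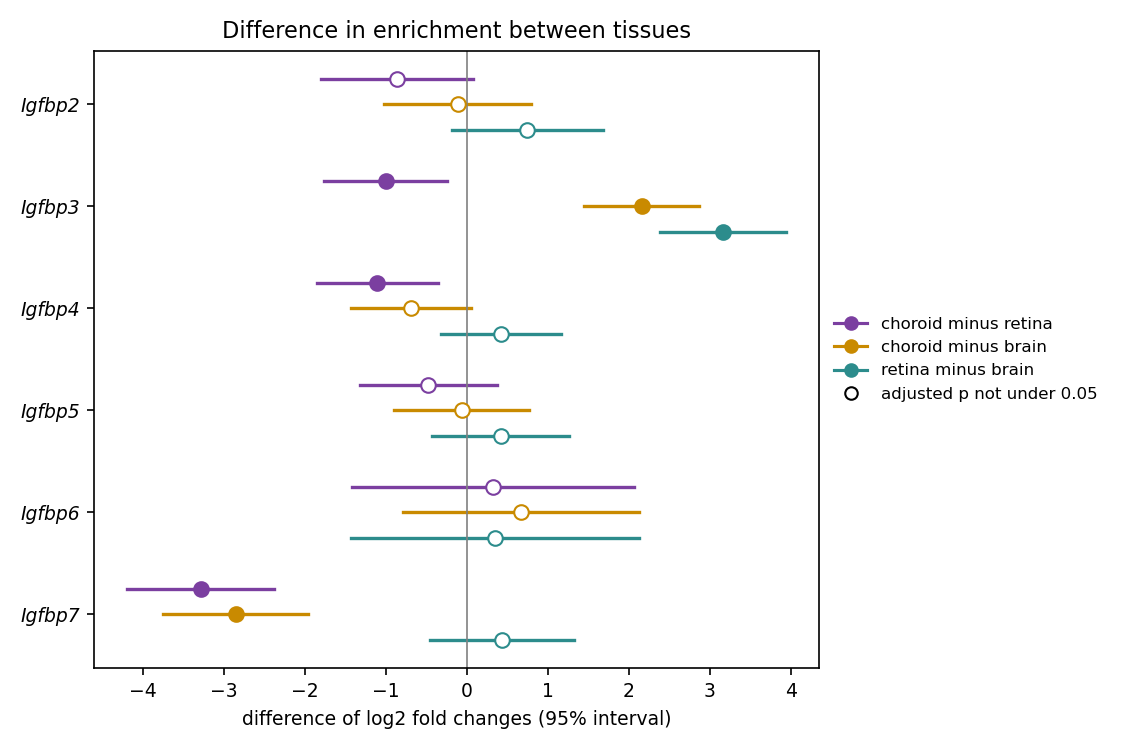
Difference between tissues in the log2 fold change of positive over input (x) for each gene (rows), with unadjusted 95% intervals; filled points have an adjusted p under 0.05. The Igfbp7 differences of choroid from retina and brain (-3.29 and -2.86) and the Igfbp3 differences of choroid and retina from brain (2.16 and 3.16) lie farthest from 0.

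Compared directly over the 9 positive libraries, all 6 genes were higher in choroid than in retina and in choroid than in brain. Of all genes, 72% were called between choroid and retina (32.9% higher, 39.1% lower), 46.8% between choroid and brain (23.1% higher, 23.8% lower) and 63.0% between retina and brain (32.1% higher, 31.0% lower). Between choroid and retina the log2 fold change ran from 2.28 ± 0.24 for Igfbp7 to 6.35 ± 0.69 for Igfbp6. The Igfbp6 value rests on 0, 10 and 40 raw counts in retina positive libraries and ran from 5.40 to 7.96 when libraries were left out, and its retina over brain value from -5.06 to -3.23. Between choroid and brain it ran from 1.04 ± 0.23 for Igfbp7 (adjusted p = 0.00265) to 5.58 ± 0.30 for Igfbp3 (adjusted p = 2.49e-08). Choroid positive libraries lay above retina and brain positive libraries for each gene, without overlap, and how many of all genes did so was not counted. Marker lists of cell types went both ways beside these differences. Choroid over retina had 7 of 8 endothelial (median 1.11), 4 of 4 myeloid and 2 of 2 fibroblast markers higher. It had 2 of 3 mural (median -1.90) and 4 of 5 neuron markers lower. Choroid over brain had 2 of 8 endothelial markers higher and 1 lower, and 2 of 2 fibroblast markers higher. Of its 4 myeloid markers 1 was higher and 2 lower, and 5 of 5 neuron markers were lower. Retina over brain had 6 of 8 endothelial (median -1.27) and 4 of 4 myeloid markers lower, but 2 of 3 mural markers higher (median 1.95). Retina mural sums were uneven, at 423, 44.2 and 24.8 CPM in positive libraries 421, 953 and 960, so both mural medians lean on library 421. Their part in the members' differences was not tested. Retina was lower than brain for 5 of 6 genes, from -0.72 ± 0.21 for Igfbp4 to -3.74 ± 0.66 for Igfbp6. The remaining gene, Igfbp3, was at -0.52 ± 0.25 (adjusted p = 0.0927), and its retina and brain libraries overlapped. It was called lower without retina positive 421 (-0.77, adjusted p = 0.0188, range over 18 alternatives 0.0188 to 0.415) and without brain positive 960 (-0.69, adjusted p = 0.0466). The order of the positive fractions was therefore choroid, brain, retina for every member, with retina and brain not separated for Igfbp3. Leaving out number 953 ended the choroid over brain calls of Igfbp2 (0.73, adjusted p = 0.146) and Igfbp6 (1.64, adjusted p = 0.0781), the highest adjusted p over their 18 alternatives. Leaving out number 421 or 953 ended the retina over brain call of Igfbp4 (adjusted p = 0.059 and 0.0989, range 0.000476 to 0.0989).

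The inputs had the same order. All 6 genes were higher in choroid than in retina inputs (3.52 ± 0.33 for Igfbp2 to 7.27 ± 0.26 for Igfbp3) and higher in choroid than in brain inputs (1.31 ± 0.30 for Igfbp2 to 3.99 ± 0.37 for Igfbp7), beside 31.9% and 26.7% of all genes (63.8% and 54.1% called in either direction, 31.9% and 27.4% lower). All 6 were lower in retina than in brain inputs, from -1.22 ± 0.28 for Igfbp4 to -4.18 ± 0.32 for Igfbp6, beside 34.7% of all genes (59.0% called in either direction, 24.3% higher). The largest values rest on low retina inputs. Igfbp3 had 27.5, 25 and 17 raw counts there, below the listing minimum, and is listed in retina through its positive libraries alone. Igfbp6 had 55, 76 and 53 raw counts in the retina inputs. Of these 18 input comparisons, leave-outs of a whole replicate number ended Igfbp2 choroid over brain (adjusted p = 0.0553 without 421 and 0.0931 without 953) and Igfbp4 retina over brain (0.0561 without 960), and no other. Total-count scaling moved the share of higher among called genes from 49.3% to 35.7% for choroid over brain positive fractions and from 41.1% to 52.8% for retina over brain inputs.

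The rest of the IGF system was read from a list of 30 genes. Of these, 20 were listed in choroid (6 higher and 6 lower, median log2 fold change 0.17), 22 in retina (3 higher and 4 lower, median -0.02) and 20 in brain (12 higher and 2 lower, median 1.02), while medians of all genes were -0.03, -0.01 and -0.07. Beside these counts, 21.1% of all genes were higher and 20.9% lower in choroid, 18% and 13.7% in retina, and 21.2% and 18.3% in brain. Choroid, retina and the lower side in brain lay near this background, and the 12 higher of 20 in brain above it. Of those 12, Esm1, Plau, Mmp2, Mmp9 and Stc1 met the listing minimum in their brain positive libraries only. Genes listed in that way are in the table because they are high in the positive fraction. The listing rule holds for all genes, and its part in the brain excess was not tested. Among ligands, Igf1 was higher in the choroid positive fraction (132, 124 and 145 CPM, against 68.6, 48.3 and 55.2 CPM in inputs). Its log2 fold change was 1.22 ± 0.18 in choroid (adjusted p = 0.0011), -0.61 ± 0.15 in retina (adjusted p = 0.0161, lower) and -0.14 ± 0.19 in brain (adjusted p = 0.603). Igf2 was lower in choroid (51.3, 53.7 and 64.4 CPM in positive libraries, against 137, 311 and 178 CPM in inputs), at -1.89 ± 0.30 (adjusted p = 0.00166). It was at -0.09 ± 0.17 in retina (adjusted p = 0.710) and -0.93 ± 0.33 in brain (adjusted p = 0.0625), neither of them called.

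Among the receptors, Igf1r was called in opposite directions in brain and choroid. Igf1r, the signalling receptor of both IGFs, was higher in the brain positive fraction (441, 492 and 321 CPM, against 87.7, 82.2 and 138 CPM in inputs), at 2.03 ± 0.27 (adjusted p = 0.00148). In choroid it was lower (108, 128 and 114 CPM in positive libraries, against 192, 228 and 208 CPM in inputs), at -0.84 ± 0.16 (adjusted p = 0.00349), and in retina it was at -0.09 ± 0.19 (adjusted p = 0.758). The fractions did not overlap in brain or choroid. Igf1r enrichment was smaller in choroid than in brain by -2.70 ± 0.32 (adjusted p = 1.32e-05) and smaller in retina than in brain by -1.97 ± 0.31 (adjusted p = 0.000721). The insulin receptor Insr was higher in choroid (1.32 ± 0.23, adjusted p = 0.00251) and brain (1.12 ± 0.22, adjusted p = 0.00698) and not called in retina (0.21 ± 0.15, adjusted p = 0.308). Igf2r, which takes IGF-II to lysosomes, was called in none (0.56, 0.14 and -0.70 in choroid, retina and brain). The adaptor gene Irs2 was lower in all 3 tissues (-1.62 in choroid, -0.95 in retina and -1.40 in brain), and Shc1 was higher in retina (0.91) and brain (2.54).

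Of the genes that share the binding domain, cut binding proteins or inhibit those proteases, the following had the smallest adjusted p. Esm1, a proteoglycan of activated endothelium with an IGFBP-like domain, had the list's highest value in choroid (3.92 ± 0.41, adjusted p = 0.000245). The pappalysin inhibitor Stc1 was higher there at 3.17 ± 0.37 (adjusted p = 0.000386), followed by the urokinase gene Plau at 2.25 ± 0.30 (adjusted p = 0.000667), while Crim1 was lower at -1.43 ± 0.21 (adjusted p = 0.00102). In brain the metalloprotease gene Adamts1 (3.05 ± 0.21, adjusted p = 8.4e-05), Shc1 (2.54 ± 0.22, adjusted p = 0.000203), the lysosomal protease gene Ctsd (2.39 ± 0.22, adjusted p = 0.000294) and Plau (2.57 ± 0.29, adjusted p = 0.00066) had the smallest adjusted p of the list. In retina those were Irs1 (-0.78 ± 0.13, adjusted p = 0.00306), Irs2 (-0.95 ± 0.17, adjusted p = 0.00434) and Shc1 (0.91 ± 0.18, adjusted p = 0.00579), followed by the gelatinase gene Mmp9 (-0.78 ± 0.21, adjusted p = 0.0233). In brain Plau is listed through its positive libraries alone, with 2.07 to 3.90 CPM in inputs. Ctsd is also abundant in myeloid cells, whose markers were higher in all 3 positive fractions, and their part in its value was not tested. Igfbp1, Igfbpl1, Igfals, Ins1, Ins2 and Irs4 were not analysed here.

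**Figure D5:**
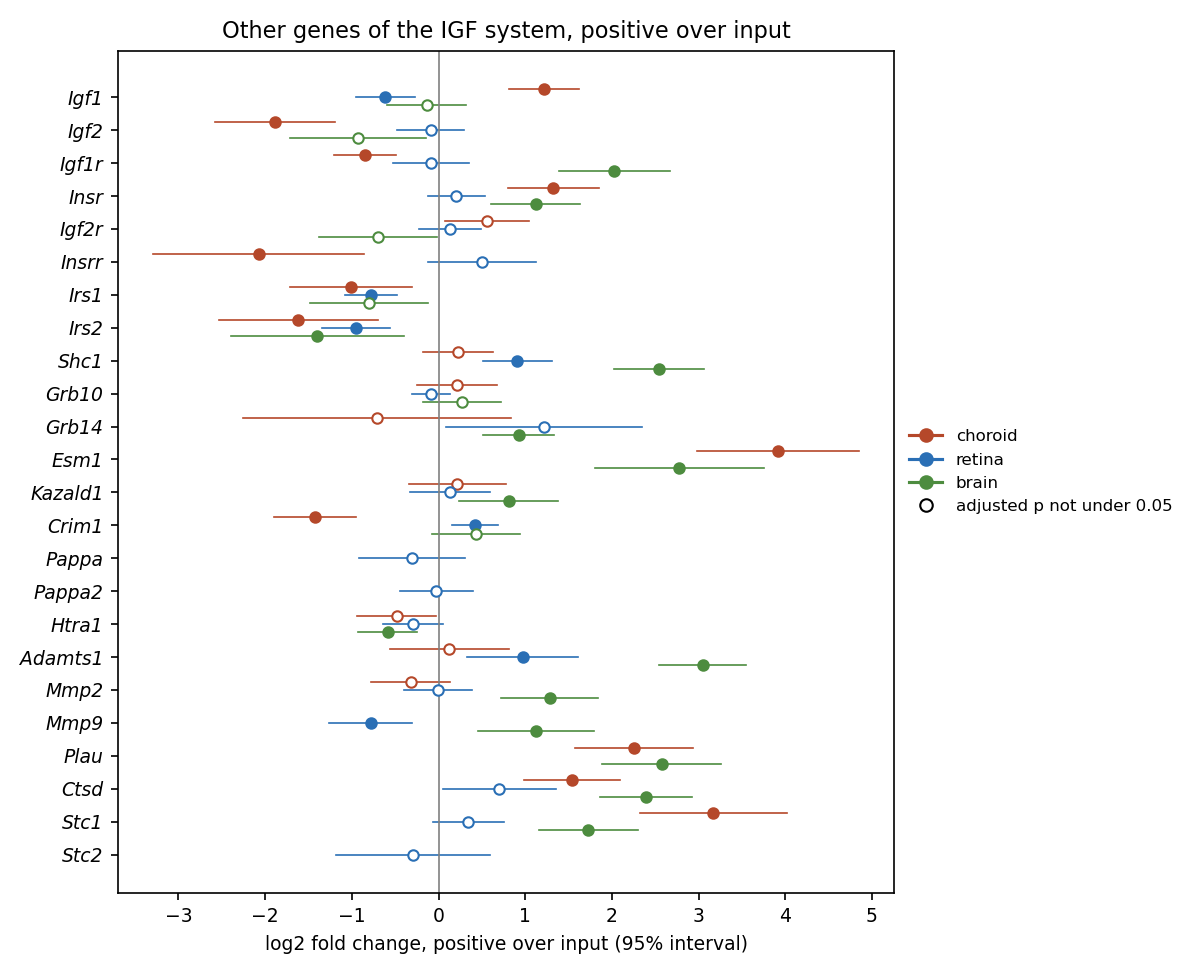
Log2 fold change of positive over input (x) for the listed genes of the IGF system other than the 6 members (rows) in choroid, retina and brain (colours), with unadjusted 95% intervals; filled points have an adjusted p under 0.05. Igf1r lies at 2.03 in brain and -0.84 in choroid, and Esm1 at 3.92 in choroid and 2.78 in brain. In brain Esm1 is listed through its positive libraries alone.

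Likeness of pattern was described by Pearson's r of log2 CPM over the 18 libraries, which share tissue and fraction, with no test. Among the members, Igfbp4 and Igfbp5 were most alike (r = 0.924), then Igfbp2 and Igfbp6 (0.905), while Igfbp2 and Igfbp7 were least alike (0.180). Igfbp3 and Igfbp7 had r = 0.875. Among 10187 other genes averaging 10 CPM or more, those nearest to Igfbp3 were Emp2 (0.989), Prss23 (0.981) and Nrp1 (0.975). Nearest to Igfbp7 were Mall (0.985), Tnfrsf1b (0.985) and Tagln2 (0.985). For Igfbp2 they were Ddit4l (0.982), Prdx6 (0.975) and Cryab (0.968), and for Igfbp6 Mpst (0.956), Penk (0.955) and Egln3 (0.954). Igfbp4 had Scpep1 (0.976), Cd63 (0.968) and Fuca1 (0.967), and Igfbp5 had Aebp1 (0.986), Wdr91 (0.984) and Papss2 (0.982).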

How the data were processed

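Input and anti-GFP positive RNA of choroid, retina and brain from Tie2-cre+; NuTRAP+ mice was sequenced in 18 libraries, 3 per group. The authors deposited, per tissue, expected counts per gene (raw values, not all whole) and log2 normalized values. Per the submitters' processing notes the genome build was mm10 and DESeq was used; the aligner, the counter and its strand setting were not stated in what was used here. The deposited log2 values were compared with log2 counts minus a scale factor per library, then minus the gene's input median. The factors were fitted from the deposited values themselves, and only genes with counts in every library were used. The 2 matched within 0.001 for at least 99.99% of those values in each tissue. All value columns were mapped to samples (0 were not).

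Expected counts were rounded to whole numbers and tested with edgeR 4.0.16 (R 4.3.3; TMM scaling; filterByExpr removed 0 genes; quasi-likelihood fit) over all genes of a table, or over the 10505 genes in all 3 tables for comparisons between tissues, with Benjamini-Hochberg adjustment. Residual degrees of freedom were 4 within a tissue, 12 for differences in enrichment and 6 for 9-library comparisons. Standard errors are the log2 fold change divided by the square root of F. CPM was scaled within a tissue, and over 18 libraries where divided by exon length (GENCODE vM21). Counts summed over listed genes ran from 2649095 to 32064355 per library. Standard errors of fold changes also include the spread between replicates, whereas intervals on counts cover counting error only. Promoters are from RefSeq, GRCm38.p6, where all 6 members were found, and the start nearest to the gene tables' start was used. For Igfbp4 that start lay 16 bases from the gene tables' start. The steps were tested on simulated data.

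Members and gene lists were chosen with earlier results of these data known. All 6 members were named. Of the IGF list, Igf1, Igf2, Igf1r, Igf2r and Insr were named wherever listed, and others where called, up to the 4 smallest adjusted p per tissue. The 3 genes most correlated with each member were also named. Alternatives were DESeq2 1.42.0, its size factors, scaling by total counts, no low-count filter, a mean of at least 10 CPM and limma 3.58.1 on the authors' log2 values. Further ones were 1 fit of 18 libraries, a replicate block, and leaving out each library or number. The filter removed 0 genes, so the alternative without it repeated the main fit and had to agree. It is still counted among the alternatives. Positive and input of a number come from 1 lysate, which pairs them; correlations of same-number deviations lay between 0.268 and 0.632 for choroid, between 0.00806 and 0.0868 for retina, and between 0.0339 and 0.189 for brain.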

Additional observations from a re-analysis of the deposited data

Results flagged for a closer look

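Each result here is a difference between tissues in the log2 ratio of positive over input, tested as an interaction in edgeR over 10505 genes. Igfbp7 differed by -3.29 between choroid and retina (adjusted p = 4.41e-05) and by -2.86 between choroid and brain (adjusted p = 0.000125). Igfbp3 differed by 2.16 between choroid and brain (adjusted p = 0.000194), by 3.16 between retina and brain (adjusted p = 4.1e-05) and by -1.01 between choroid and retina (adjusted p = 0.0456). Igfbp4 differed by -1.11 between choroid and retina (adjusted p = 0.0266). In retina Igfbp3 met the listing minimum in its positive libraries only, which touches both of its differences that involve retina.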

How the results depend on the processing

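Of the values of the 6 genes under the alternatives, 1331 kept direction and side of the threshold, 63 lost a call, 23 gained one and 22 changed sign. Those kept include the fits with no low-count filter, which repeat the main ones. The cause of the changes was not tested. Counts of called genes stayed within 1.5 times in 208 cases and not in 32. In 1 fit of 18 libraries, 2119 of the 10505 genes in all 3 tables were called in retina, against 3922 of 12369. Igfbp5 in retina was -0.46 among genes averaging 10 CPM or more and -0.53 in the 18-library fit. Igfbp4 in brain was 0.71 with DESeq2's size factors and 0.54 in the 18-library fit. Igfbp6 in brain was -1.03 with total-count scaling and with DESeq2, and -0.94 with the replicate block. Igfbp5 in brain was -0.75 with DESeq2 and -0.94 in the 18-library fit. With the replicate block Igfbp6 in choroid was -0.73, Igfbp2 choroid minus retina -0.88 and, over the positive fractions, where a shared number is not stated to be 1 animal, Igfbp3 retina over brain -0.53 (adjusted p = 0.0291, range over 18 alternatives 0.0188 to 0.415); the block changed no other member call. DESeq2 gave -0.56 for that Igfbp3 value, and total-count scaling -1.05 for Igfbp4 choroid minus brain. Leaving out libraries or replicate numbers gave called genes of 1972 to 5073 in choroid (4922 with all), 832 to 5748 in retina (3922) and 1455 to 9618 in brain (5103). Single libraries alone gave at least 3255, 1900 and 3085 in the same order, and up to 9312 in brain, and brain had 1717 without number 421. For differences the counts were 624 to 4108 for choroid minus retina (3028; 1430 without number 421), 598 to 2973 for choroid minus brain (2582; 1593 without number 421) and 72 to 2749 for retina minus brain (1397; 273 without number 421, single libraries 748 to 2383). They were 2892 to 5350 for choroid over brain positive fractions (4919), and for inputs 3483 to 7231 for choroid over brain (5684) and 3571 to 7022 for retina over brain (6200; 4125 without number 421). For members, ranges are given first for numbers and then for single libraries. Positive over input ran -1.12 to -0.76 and -1.05 to -0.74 for Igfbp2 in retina, and in brain -1.70 to -1.31 and -1.79 to -1.05. Igfbp4 ran -0.40 to 0.16 and -0.36 to 0.14 in choroid, 0.70 to 1.17 (numbers; without number 953 it was 1.12) in retina, and in brain 0.58 to 0.99 and 0.59 to 1.00, where it was 0.59 without number 421. Igfbp5 ran -1.25 to -0.72 and -1.15 to -0.68 in choroid (-0.99 without number 960), -0.56 to -0.39 and -0.56 to -0.32 in retina (-0.49 without number 960), and in brain -1.12 to -0.55 and -1.01 to -0.52. Igfbp6 ran -1.23 to -0.25 and -1.35 to -0.20 in choroid, -2.08 to -0.27 (single) in retina, and in brain -1.16 to -0.80 and -1.23 to -0.57; Igfbp2 in brain was -1.62 without number 421. Differences that changed sign, in the same form, were for choroid minus brain Igfbp2 (-0.53 to 0.0804 and -0.80 to 0.14), Igfbp5 (-0.53 to 0.11 and -0.41 to 0.0827; 0.0122 without number 421) and Igfbp6 (single, -0.33 to 0.91). For choroid minus retina it was Igfbp6 (-0.53 to 2.00 and -0.49 to 1.63). For retina minus brain they were Igfbp4 (-0.38 to 0.66 and -0.0742 to 0.58), Igfbp6 (-1.49 to 0.90 and -0.96 to 0.86) and Igfbp7 (-0.0569 to 0.71 and -0.30 to 0.66). Igfbp6 in retina falls below a mean of 10 CPM and has no value there, and its counts and those of Igfbp3 in retina inputs limit what depth can show.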
